A study of Mus musculus with 12 samples.

Results

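The genes of glycolysis, with those for glucose uptake, lactate export and the control of pyruvate entry into mitochondria, were followed in CD4+ T cells of mouse spleen. The set was a list of 34 named genes out of 23479 gene symbols in the count files, and all 34 had an entry. It held 2 glucose carriers, 22 genes for enzymes from hexokinase to pyruvate kinase and for enzymes that control phosphofructokinase or oppose it, 2 lactate dehydrogenases, 2 lactate carriers, 5 kinases and phosphatases of the pyruvate dehydrogenase complex, and Hif1a. Of the 34, 31 had enough reads to be tested, and Hk3, Eno1 and Fbp1 did not.

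The 12 libraries fell into 4 groups of 3. KO 24 h and WT 24 h were cells from Sirt2-/- mice (KO) and from C57BL/6J mice (WT) stimulated for 24 h with plate-bound antibody to CD3 (5 µg/ml). KO 0 h and WT 0 h were cells of the same genotypes taken straight to RNA extraction. The knockout carried the C57BL/6 background label and was not restricted to a cell type, so cells other than T cells in those mice lacked the gene as well. No costimulating antibody is named in the labels, and they do not state whether replicates are separate mice, so each p-value reflects variation among these libraries that may be technical only.

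Glycolysis breaks glucose down to pyruvate in the cytosol, and lactate dehydrogenase can turn pyruvate into lactate, which leaves the cell through monocarboxylate carriers. Pyruvate dehydrogenase instead sends pyruvate into mitochondrial oxidation, and its kinases switch it off. A resting T cell uses little glucose, and stimulation through the T cell receptor is known to raise glucose uptake and lactate release, with isozyme choice at hexokinase and lactate dehydrogenase as known points of control. SIRT2 is a protein deacetylase that needs NAD, and several glycolytic enzymes are among its reported substrates.

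Reads in genes were 3.63 to 5.33 megareads in KO 24 h, 4.68 to 8.02 in WT 24 h, 5.78 to 10.03 in KO 0 h and 6.40 to 8.77 in WT 0 h. Levels are given as CPM, gene reads scaled to library size with TMM factors. The targeted gene Sirt2 had 9.51, 10.5 and 19.6 CPM in KO 24 h, against 62.2, 62.9 and 76.2 CPM in WT 24 h, and it had 12.1, 9.03 and 16.2 CPM in KO 0 h, against 70.4, 67.8 and 85.3 CPM in WT 0 h. The summed level of 8 T cell markers, such as Cd3e and Cd4, was 2750 to 3150 CPM in KO 24 h, 2870 to 3080 in WT 24 h, 6130 to 6920 in KO 0 h and 5900 to 6290 in WT 0 h. B cell markers summed to 3.29 to 7.86 CPM in KO 24 h, 5.02 to 7.03 in WT 24 h, 21.1 to 35.0 in KO 0 h and 24.1 to 39.4 in WT 0 h. The 10 monocyte and macrophage markers summed to 19.7 to 24.6 CPM in KO 24 h, 21.2 to 27.5 in WT 24 h, 14.9 to 17.2 in KO 0 h and 15.4 to 17.6 in WT 0 h, with no read for Fcgr1 or Cd5l. Within that list Hmox1, for a haem oxygenase, was called higher over time in both genotypes, and Itgam, for a myeloid integrin, was called lower. Sums of these lists differed with time, and at 0 h the B cell marker Cd22 was lower and the CD8 T cell marker Cd8b1 higher in KO. The part of other cells in the results below was not tested. In bulk RNA, fewer cells of a type and less RNA per cell cannot be told apart.

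Seen per length, the pathway was uneven. In RPKM, CPM per kilobase of exon, the median over the 12 libraries was 290.9 for Gapdh, 187.8 for Aldoa, 109.4 for Ldha, 88.0 for Pkm and 56.8 for Gpi1, while the hexokinase gene Hk1 stood at 18.0, the glucose carrier gene Slc2a1 at 11.7 and the phosphofructokinase gene Pfkp at 7.14 RPKM. Uptake, glucose phosphorylation and phosphofructokinase are known control points. By union exon length, these steps had less RNA than those from aldolase to lactate dehydrogenase, triosephosphate isomerase and enolase excepted. Hk1 has 8532 bases by that length and 4278 in its longest transcript, so its place relative to Pgam1 depends on the length used. RNA of 19 enzymes from hexokinase to lactate dehydrogenase summed to 3371 ± 229.5 CPM in KO 24 h, 3752 ± 345 in WT 24 h, 3318 ± 185.3 in KO 0 h and 3527 ± 38.8 in WT 0 h (SD, n = 3 each). Between 82.7% and 85.5% of that sum came from Gapdh, Aldoa, Pkm, Ldha and Gpi1.

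After 24 h of anti-CD3 most genes of the set did not pass with TMM scaling. A small number passed in the same direction in both genotypes. Hk2, Slc16a1, Pgam1, Pgk1 and Hif1a rose in KO and in WT, and Slc2a3 and Ldhb fell in both. In KO, 7 of the 31 tested genes rose and 2 fell (edgeR quasi-likelihood test, Benjamini-Hochberg adjusted p below 0.05), against 19.4% of all 10981 tested genes higher and 21.0% lower, 40.4% in all. In WT, 6 rose and 3 fell, against 20.2% higher and 20.5% lower over all tested genes, 40.7% in all. With TMM scaling, the share of members called was thus below that of all genes. The median log2 fold change of the 31 was 0.13 in KO and 0.20 in WT, where all tested genes had medians of -0.0028 in KO and 0.0027 in WT. Rn45s, a ribosomal RNA entry, held 7.95% to 8.16% of reads in genes in KO 24 h and 8.72% to 9.55% in WT 24 h. It held 12.5% to 17.5% in KO 0 h and 13.3% to 16.1% in WT 0 h. With scaling by total reads, which does not adjust for this difference, the median of all genes was 0.24 in KO and 0.21 in WT on the log2 scale. The median of the 31 was 0.37 in KO and 0.40 in WT. That scaling called 14 members higher and 2 lower in KO, against 3708 and 1403 of all 10981 tested genes. In WT it called 15 higher and 2 lower, against 3580 and 1468. The share of members called was then not below that of all genes. All changes below are relative to TMM scaling, and with total reads the small negative values given below for Hk1, Pkm and Ldha, and for Gapdh and Pdk1 in KO, were positive.

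**Figure D1:**
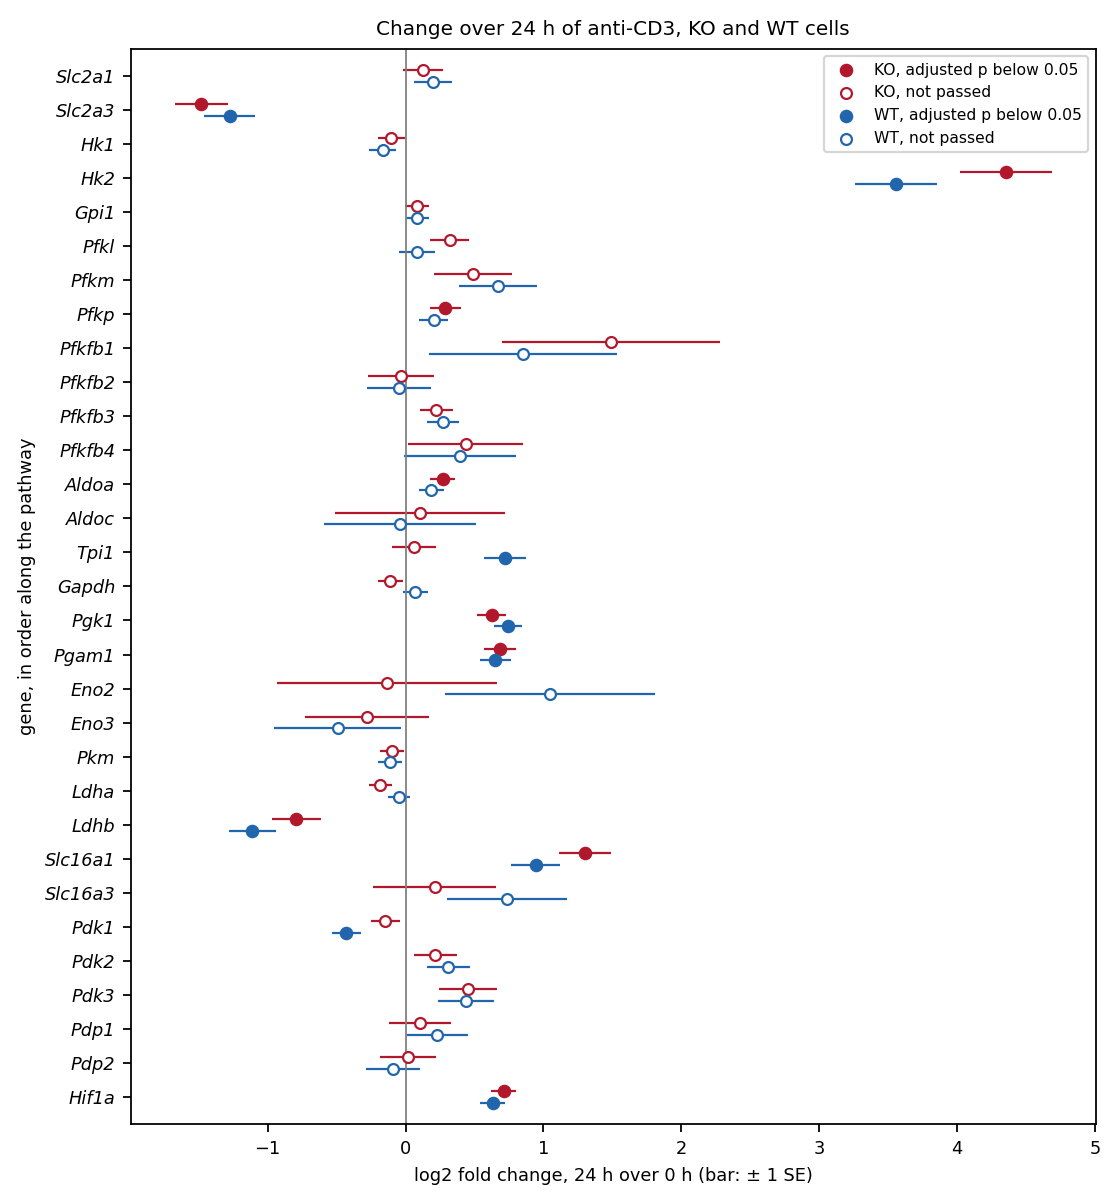
Log2 fold change of each of the 31 tested genes between 24 h of anti-CD3 and 0 h, with KO above WT for each gene and bars of 1 SE; filled circles passed an adjusted p of 0.05. Hk2 stands alone on the right at 4.35 in KO and 3.56 in WT, and Slc2a3 and Ldhb lie on the left in both genotypes.

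At glucose uptake, the carriers parted. Slc2a1 encodes GLUT1, the carrier that activated T cells are known to use, and it had 42.2, 40.7 and 34.6 CPM in KO 24 h, 49.8, 43.6 and 53.9 in WT 24 h, 40.6, 28.7 and 38.2 in KO 0 h and 48.3, 38.3 and 41.5 in WT 0 h. The 24 h libraries overlapped those of 0 h in both genotypes, and Slc2a1 did not pass (log2 fold change 0.13 in KO and 0.20 in WT). Slc2a3, for the high-affinity neuronal and lymphocyte carrier GLUT3, had 13.2, 11.7 and 7.21 CPM in KO 24 h, 11.8, 12.7 and 14.2 in WT 24 h, 29.0, 26.4 and 36.1 in KO 0 h and 32.9, 32.3 and 29.4 in WT 0 h. Every 24 h library lay below every 0 h library, and the fall was 1.48 on the log2 scale in KO (SE 0.194, edgeR quasi-likelihood test, BH-adjusted p = 1.94e-08) and 1.28 in WT (SE 0.183, adjusted p = 1.41e-07). Per length, Slc2a1 made up 88.5% ± 2.06 of the RNA of both carriers in KO 24 h, 88.7% ± 1.03 in WT 24 h, 70.7% ± 3.14 in KO 0 h and 73.6% ± 2.21 in WT 0 h (SD, n = 3 each).

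**Figure D2:**
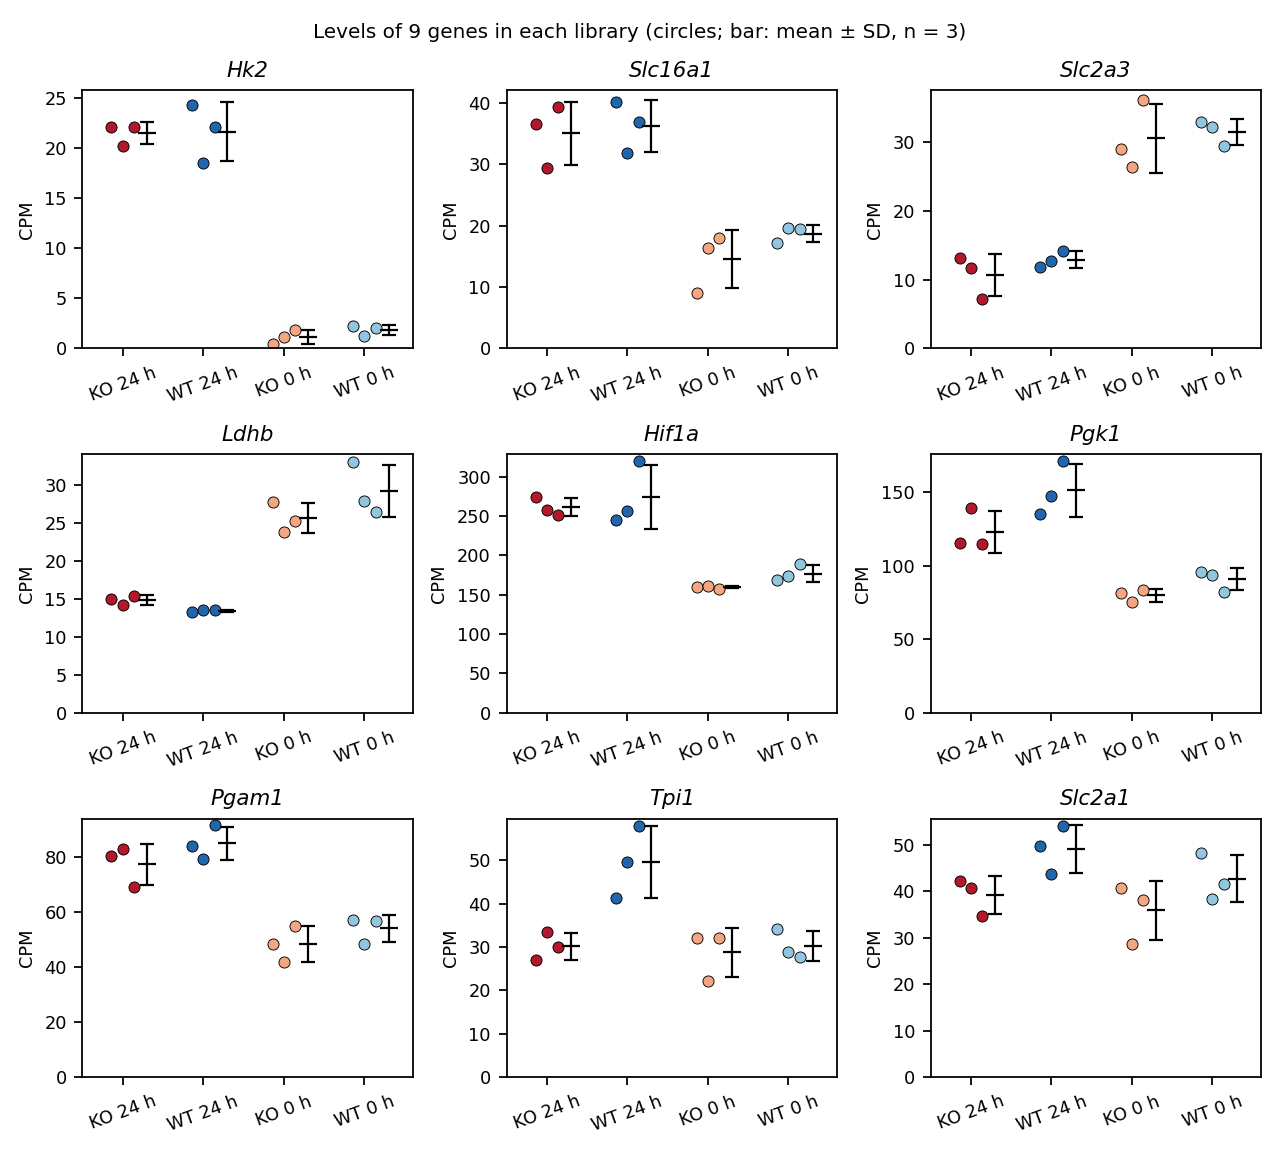
CPM of 9 genes in each of the 12 libraries (circles), with the mean and SD of each group (bar, n = 3), on axes that start at 0. For Hk2, Slc16a1, Slc2a3, Ldhb, Hif1a, Pgk1 and Pgam1 the 24 h libraries of a genotype do not overlap its 0 h libraries, and for Tpi1 the 3 WT 24 h libraries stand above the other 9.

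Hexokinase traps glucose inside the cell by phosphorylating it. Hk2, the inducible hexokinase, had 22.1, 20.3 and 22.1 CPM in KO 24 h, 24.3, 18.5 and 22.2 in WT 24 h, 0.429, 1.13 and 1.88 in KO 0 h and 2.25, 1.25 and 2.00 in WT 0 h. It was near the detection limit ex vivo, with 21 reads over the 3 KO 0 h libraries and 38 over the 3 WT 0 h libraries. The rise was 20.4-fold in KO (log2 4.35, SE 0.333, edgeR quasi-likelihood test, BH-adjusted p = 4.59e-15) and 11.8-fold in WT (log2 3.56, SE 0.299, adjusted p = 8.94e-14). The difference between these rises did not pass (interaction log2 0.80, SE 0.493, adjusted p = 0.996).

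Hk1, the constitutive hexokinase, had 149.6, 149.8 and 153.6 CPM in KO 24 h, 146.5, 147.7 and 181.9 in WT 24 h, 186.7, 152.8 and 145.6 in KO 0 h and 174.6, 171.1 and 188.9 in WT 0 h. Its groups overlapped and it did not pass over time (log2 -0.10 in KO and -0.17 in WT). By share of hexokinase RNA per length, Hk2 made up 16.8% ± 0.621 in KO 24 h, 16.2% ± 2.27 in WT 24 h, 1.05% ± 0.745 in KO 0 h and 1.43% ± 0.399 in WT 0 h (SD, n = 3 each). With the longest transcript as the length, those shares were 9.92%, 9.54%, 0.577% and 0.785% in the same order of groups. Hk1 stayed the main hexokinase transcript in each group. Hk3, known from myeloid cells, had 62 reads in all 12 libraries and was not tested.

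At phosphofructokinase, the committed step, Pfkp alone passed, and in KO only. Pfkp, its most abundant isozyme gene by union exon length, had 100.9, 107.5 and 99.9 CPM in KO 24 h, 87.7, 103.5 and 125.1 in WT 24 h, 91.5, 78.4 and 82.0 in KO 0 h and 86.2, 102.1 and 87.3 in WT 0 h. The KO libraries did not overlap between times, while those of WT did. Pfkp rose in KO (log2 0.29, SE 0.11, edgeR quasi-likelihood test, BH-adjusted p = 0.0315), a call that ended without any of KO 24 h replicates 1, 2 and 3 or KO 0 h replicate 2, at adjusted p of up to 0.108. In WT its log2 fold change of 0.20 did not pass. Pfkl, the liver-type gene, and Pfkm, the muscle-type gene, did not pass either, with log2 0.32 and 0.49 in KO and 0.08 and 0.67 in WT. Every 24 h library lay above every 0 h library for Pfkl in KO and for Pfkm in WT (same test, adjusted p = 0.0615 and 0.0564). Pfkp held 44.4% of phosphofructokinase RNA per length in KO 24 h, 45.9% in WT 24 h, 45.8% in KO 0 h and 46.7% in WT 0 h. The share of Pfkm was 18.9%, 16.2%, 16.9% and 11.7% in that order, and at 0 h its KO libraries lay above those of WT. With the longest transcript as the length, Pfkp held 43.9% in KO 24 h, 45.0% in WT 24 h, 45.0% in KO 0 h and 45.0% in WT 0 h, and Pfkl 42.0%, 43.0%, 42.4% and 46.5% in that order, so that Pfkl came first in WT 0 h.

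Among the PFKFB enzymes, which make or remove the sugar phosphate that activates phosphofructokinase, Pfkfb3 held 70.9% to 71.9% of the RNA per length in the 4 groups. Pfkfb3 had 57.6, 52.7 and 57.4 CPM in KO 24 h, 60.0, 56.8 and 58.8 in WT 24 h, 43.3, 47.6 and 53.4 in KO 0 h and 50.4, 48.6 and 46.4 in WT 0 h. It stood higher at 24 h in each WT library without passing (log2 0.22 in KO and 0.27 in WT, edgeR quasi-likelihood test, BH-adjusted p = 0.135 and 0.0565). Pfkfb1, Pfkfb2 and Pfkfb4 did not pass. Fbp1, which runs the step backwards in gluconeogenic tissue, had 0 reads among 78.71 megareads, which allows up to 0.0381 CPM by counting error alone.

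**Figure D3:**
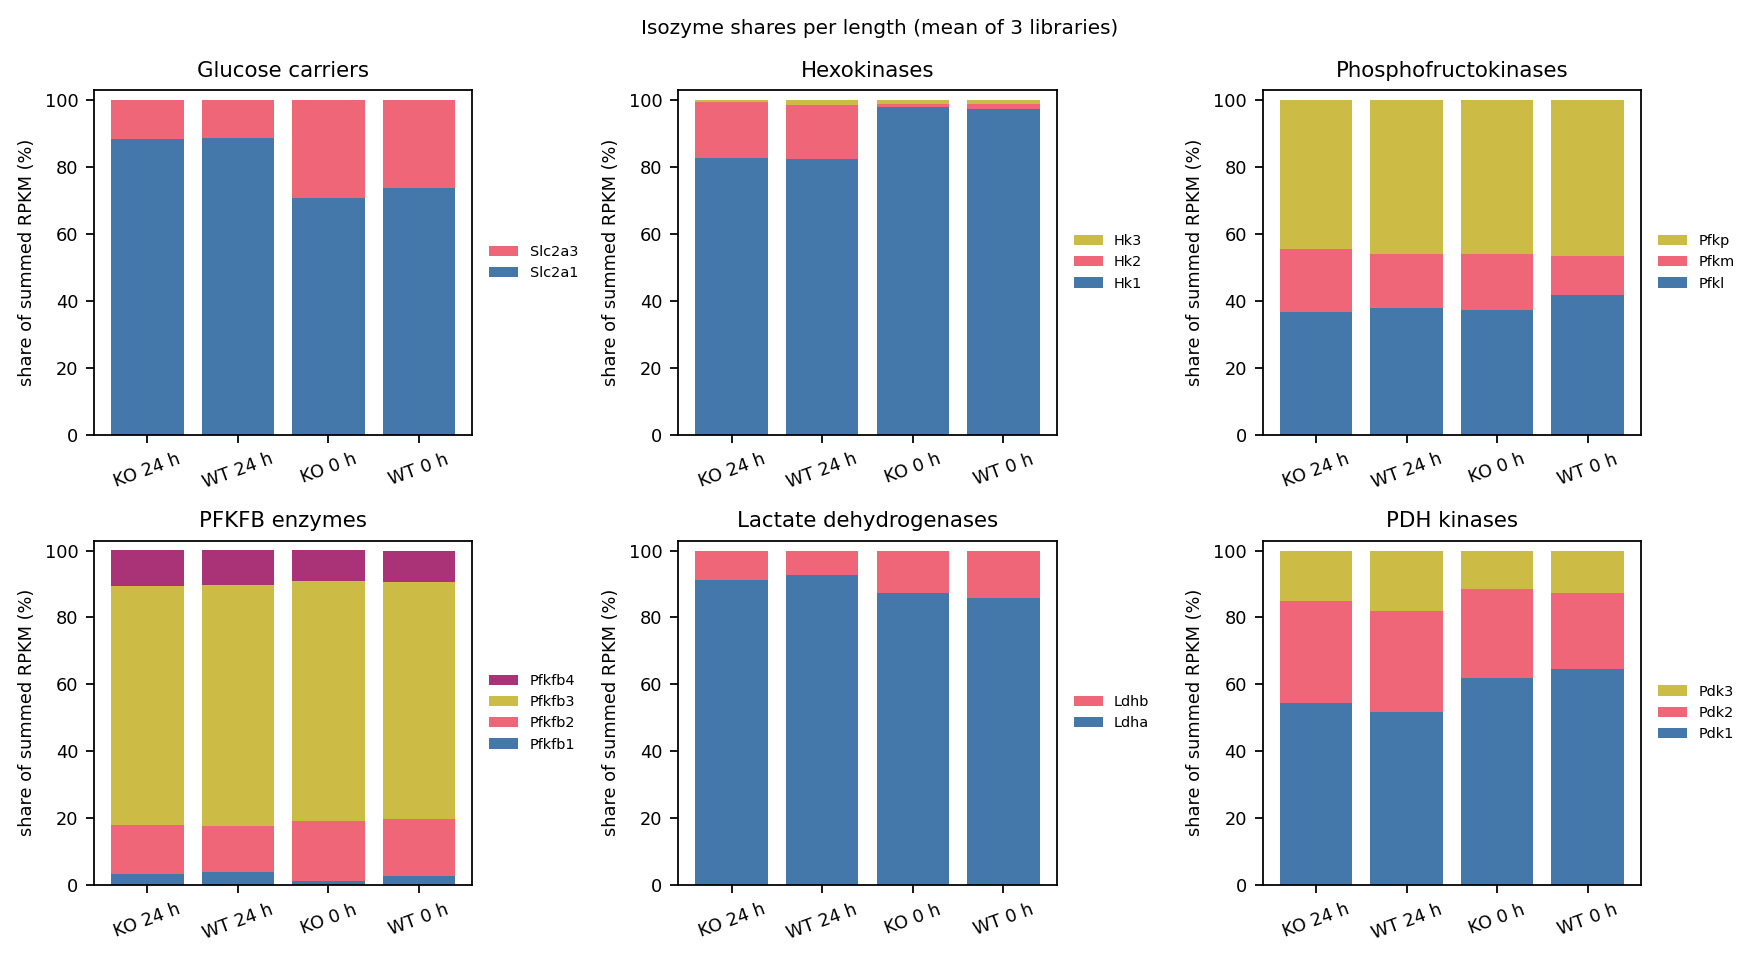
Share of each isozyme in the summed RPKM of its family, in percent, as the mean of 3 libraries for KO 24 h, WT 24 h, KO 0 h and WT 0 h. The Hk2 band is 16.8% and 16.2% in the 24 h groups and 1.05% and 1.43% in the 0 h groups, while the Pfkfb3 band stays between 70.9% and 71.9%.

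In the middle of the pathway, Pgk1 and Pgam1 rose and their neighbours mostly did not. Pgk1, for the kinase of the first ATP-yielding step, had 115.2, 139.3 and 114.6 CPM in KO 24 h, 135.3, 147.4 and 170.9 in WT 24 h, 81.6, 75.0 and 83.3 in KO 0 h and 96.0, 94.0 and 82.1 in WT 0 h. Pgam1, for the mutase that follows it, had 80.1, 82.9 and 68.9 CPM in KO 24 h, 83.9, 79.1 and 91.3 in WT 24 h, 48.3, 41.8 and 54.7 in KO 0 h and 56.9, 48.2 and 56.8 in WT 0 h. For both genes every 24 h library lay above every 0 h library. Pgk1 rose by a log2 fold change of 0.62 in KO (SE 0.104, edgeR quasi-likelihood test, BH-adjusted p = 3.26e-06) and 0.74 in WT (SE 0.102, adjusted p = 5.26e-08). For Pgam1 the log2 fold change was 0.69 in KO (SE 0.118, adjusted p = 5.62e-06) and 0.65 in WT (SE 0.115, adjusted p = 7.9e-06).

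Aldoa, the aldolase gene that held 99.6% to 99.7% of aldolase RNA per length, had 523.5, 570.6 and 545.1 CPM in KO 24 h, 602.0, 548.3 and 692.2 in WT 24 h, 483.3, 411.2 and 464.8 in KO 0 h and 587.3, 567.2 and 463.5 in WT 0 h. Its KO libraries did not overlap between times and its WT libraries did. It rose in KO (log2 0.27, SE 0.0925, edgeR quasi-likelihood test, BH-adjusted p = 0.0169), though not without KO 0 h replicate 2 or KO 24 h replicate 2 (adjusted p of up to 0.0748), and in WT it had log2 0.19 without passing (adjusted p = 0.099). Gpi1, for the isomerase after hexokinase, had a log2 fold change of 0.08 in both genotypes. Gapdh, for the dehydrogenase that reduces NAD, had -0.11 in KO and 0.07 in WT, and Pkm, for pyruvate kinase, had -0.10 in KO and -0.12 in WT. None of these 3 passed.

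Enolase could not be followed. Eno1, the ubiquitous isozyme, had 12 reads in all 12 libraries. Of the 50-base windows of its transcript 72.2% also occur in transcripts of other genes, above all its copy Eno1b, which the files list by an older symbol, Gm5506. Reads that align to several places were not counted for any gene, and Gm5506 itself averaged 7.98 ± 1.57 CPM in KO 24 h, 10.2 ± 1.50 in WT 24 h, 11.1 ± 1.80 in KO 0 h and 10.9 ± 1.47 in WT 0 h (SD, n = 3 each). The muscle-type gene Eno3 had 6.40, 3.49 and 2.98 CPM in KO 24 h, 5.82, 2.29 and 1.81 in WT 24 h, 5.68, 8.22 and 1.69 in KO 0 h and 2.94, 5.40 and 4.88 in WT 0 h. Its groups overlapped throughout, and its lead in the family rests on the low count for Eno1. Gapdh had more of its windows shared than Eno1 and averaged 1109 CPM in KO 24 h, 1295 in WT 24 h, 1198 in KO 0 h and 1233 in WT 0 h. Why Eno1 had so few reads, and whether shared sequence lowered the reads of either gene, was not tested. Other genes also shared 82.5% of windows in Gapdh, 68.0% in Pgk1, 41.5% in Pgam1, 34.4% in Pkm, 27.0% in Ldhb and 25.3% in Gpi1. The share was 25.1% in Pfkfb2, 17.1% in Pfkp, 16.6% in Ldha and 13.5% in Aldoa. The levels of these genes are therefore uncertain. In Pkm, Gpi1, Pfkfb2 and Pfkp, part or all of the share came from genes that overlap them in the genome and not from copies. The share was 7.51% in Tpi1 and 0% in Slc2a3, Hk2, Slc16a1 and the 3 Pdk genes.

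**Figure D4:**
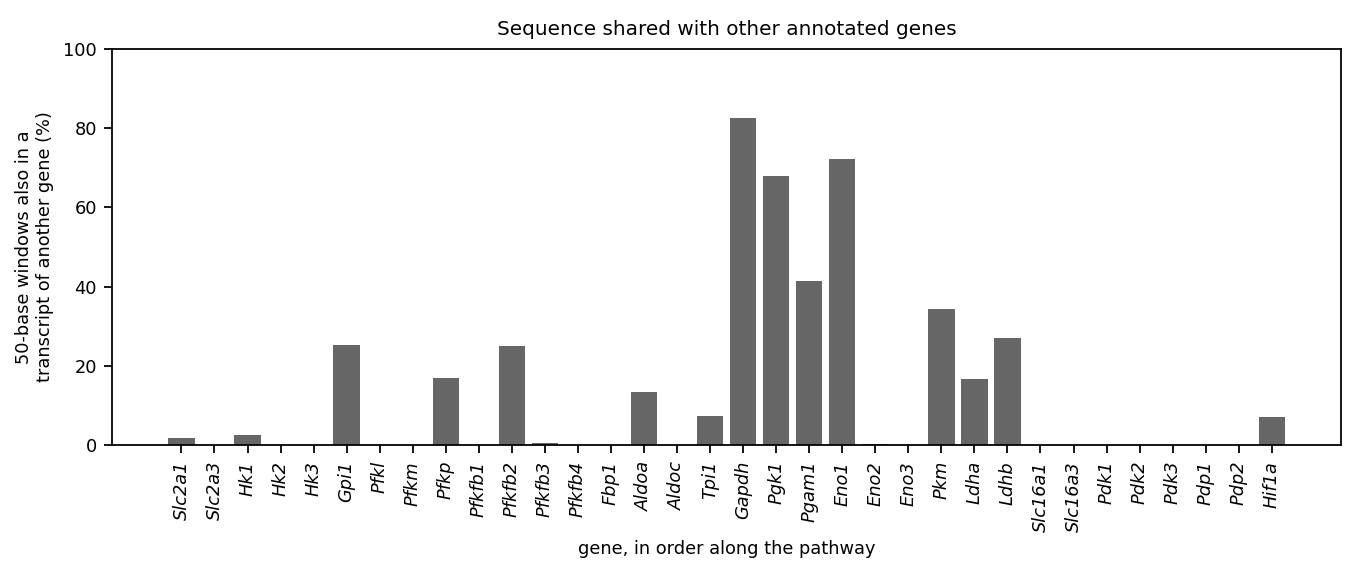
Percent of 50-base windows in the longest protein-coding transcript of each of the 34 genes that also occur in a transcript of another gene, in order along the pathway. Gapdh, Eno1 and Pgk1 stand above 60%, and most genes at either end of the pathway stand at or near 0.

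Lactate dehydrogenase changed through its minor isozyme. Ldha, for the subunit that favours lactate formation, had 308.1, 339.5 and 342.5 CPM in KO 24 h, 340.4, 347.4 and 400.9 in WT 24 h, 383.3, 357.4 and 382.7 in KO 0 h and 376.2, 366.6 and 382.2 in WT 0 h. Its KO 24 h libraries lay below those of KO 0 h and its WT groups overlapped, and it did not pass (log2 -0.18 in KO and -0.05 in WT, edgeR quasi-likelihood test, BH-adjusted p = 0.0755 and 0.686). Ldhb, for the subunit that favours pyruvate formation, had 15.0, 14.1 and 15.4 CPM in KO 24 h, 13.3, 13.5 and 13.5 in WT 24 h, 27.8, 23.9 and 25.2 in KO 0 h and 33.1, 28.0 and 26.5 in WT 0 h. The 24 h libraries lay below all 0 h libraries. Ldhb fell by 0.79 on the log2 scale in KO (SE 0.176, edgeR quasi-likelihood test, BH-adjusted p = 0.000275) and by 1.11 in WT (SE 0.171, adjusted p = 6.29e-07). Per length, Ldhb was 8.68% ± 0.617 of the pair in KO 24 h, 7.27% ± 0.548 in WT 24 h, 12.6% ± 0.569 in KO 0 h and 14.1% ± 1.45 in WT 0 h (SD, n = 3 each).

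RNA of the main lactate carrier rose. Slc16a1, for the monocarboxylate carrier MCT1, had 36.6, 29.3 and 39.3 CPM in KO 24 h, 40.1, 31.8 and 36.9 in WT 24 h, 9.11, 16.4 and 18.1 in KO 0 h and 17.1, 19.7 and 19.4 in WT 0 h. No 24 h library overlapped a 0 h library. It rose 2.46-fold in KO (log2 1.30, SE 0.189, edgeR quasi-likelihood test, BH-adjusted p = 2.1e-07) and 1.92-fold in WT (log2 0.94, SE 0.18, adjusted p = 2.8e-05), and the difference between genotypes in this rise did not pass (interaction log2 0.36, adjusted p = 0.996). Slc16a3, for the hypoxia-inducible carrier MCT4, averaged 3.92 ± 0.678 CPM in KO 24 h, 4.53 ± 1.51 in WT 24 h, 3.45 ± 1.23 in KO 0 h and 2.63 ± 1.08 in WT 0 h (SD, n = 3 each) and did not pass.

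Hif1a, for the oxygen-regulated subunit of the factor that drives many glycolytic genes, rose in both genotypes. It had 274.3, 257.6 and 251.8 CPM in KO 24 h, 245.1, 256.9 and 320.3 in WT 24 h, 160.1, 160.9 and 157.8 in KO 0 h and 168.9, 173.3 and 188.7 in WT 0 h, with no overlap between times. The log2 fold change was 0.71 in KO (SE 0.0913, edgeR quasi-likelihood test, BH-adjusted p = 1.22e-08) and 0.63 in WT (SE 0.0901, adjusted p = 1.26e-07). The factor is known to be controlled mainly at the protein level, which these data do not measure.

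At the branch into mitochondria the kinases of pyruvate dehydrogenase shifted in share. Pdk1 had 165.1, 175.1 and 173.5 CPM in KO 24 h, 150.9, 154.8 and 131.8 in WT 24 h, 204.1, 177.8 and 186.2 in KO 0 h and 209.2, 230.9 and 150.0 in WT 0 h. The KO libraries did not overlap between times and those of WT did, as WT 0 h replicate 3 lay among the WT 24 h libraries. Pdk1 fell by 0.43 on the log2 scale in WT (SE 0.106, edgeR quasi-likelihood test, BH-adjusted p = 0.00105), a call lost under scaling by total reads (log2 -0.23, adjusted p = 0.109), and had log2 -0.15 in KO without passing (adjusted p = 0.286). The difference between these changes did not pass (interaction log2 0.28, adjusted p = 0.952). Pdk1 held 54.5% of kinase RNA per length in KO 24 h, 51.7% in WT 24 h, 62.0% in KO 0 h and 64.7% in WT 0 h. Pdk2 held 30.3%, 30.2%, 26.5% and 22.6% in that order, and Pdk3 15.2%, 18.1%, 11.5% and 12.6%. By the same test Pdk2 did not pass over time (log2 0.22 in KO and 0.31 in WT, adjusted p = 0.28 and 0.108). Nor did Pdk3 (log2 0.45 in KO and 0.44 in WT, adjusted p = 0.0833 and 0.0849). For Pdk3 in both genotypes, and for Pdk2 in WT, the 24 h libraries lay above those of 0 h. The phosphatase gene Pdp1, whose product switches the complex back on, had 14.8, 15.0 and 16.9 CPM in KO 24 h, 13.1, 15.8 and 18.4 in WT 24 h, 11.5, 12.9 and 19.6 in KO 0 h and 10.2, 12.6 and 17.4 in WT 0 h. Its groups overlapped, and neither Pdp1 nor Pdp2 passed.

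The promoters of Hk2 and Slc16a1, which rose, and of Ldhb, which fell, are shown because these genes had the largest changes over time among those that passed in both genotypes and have a start in the RefSeq table of GRCm38.p6. Each line gives the 250 bases before the transcription start, 5′ to 3′ on the gene's strand. Capitals mark ACGTG, a form of the core of the hypoxia response element, on either strand (CACGT where it lies on the opposite strand). They also mark CACGTG, the E-box that MYC is known to bind, which contains ACGTG on both strands. Other forms of the hypoxia core, such as GCGTG, were not searched for. Hk2 lies at chr6:82774455-82774704 on the minus strand, Slc16a1 at chr3:104638414-104638663 on the plus strand and Ldhb at chr6:142507958-142508207 on the minus strand.
Hk2: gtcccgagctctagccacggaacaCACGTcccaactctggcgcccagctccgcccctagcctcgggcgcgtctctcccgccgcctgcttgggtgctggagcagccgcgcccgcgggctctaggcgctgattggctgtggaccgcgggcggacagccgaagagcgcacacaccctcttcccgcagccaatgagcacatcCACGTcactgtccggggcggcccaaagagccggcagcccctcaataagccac
Slc16a1: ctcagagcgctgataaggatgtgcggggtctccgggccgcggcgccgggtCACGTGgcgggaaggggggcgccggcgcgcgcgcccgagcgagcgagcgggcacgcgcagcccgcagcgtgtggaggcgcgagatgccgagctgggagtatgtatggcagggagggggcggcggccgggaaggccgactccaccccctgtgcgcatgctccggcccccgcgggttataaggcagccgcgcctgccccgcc
Ldhb: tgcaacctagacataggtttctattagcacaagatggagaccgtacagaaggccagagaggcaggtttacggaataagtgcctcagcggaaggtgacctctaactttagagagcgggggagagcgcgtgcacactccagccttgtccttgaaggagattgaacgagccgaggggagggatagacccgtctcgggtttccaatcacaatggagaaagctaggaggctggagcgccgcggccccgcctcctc
The Hk2 window held ACGTG 2 times outside a CACGTG, that of Slc16a1 held CACGTG 1 time, and that of Ldhb held neither. Of the 34 genes, 32 had a start in the table. CACGTG occurred in 8 of 32 genes (25.0%), against 6.86% of all 27025 genes with a start, noncoding genes included. Genes can have several starts, and by start CACGTG occurred at 15.7% of 51, against 6.02% of all 32851. ACGTG outside CACGTG occurred at 29.4% of the 51 starts of these genes, against 11.4% of all 32851 starts. These are matches of letters and not sites shown to be bound. Of genes with the E-box, Slc16a1 and Hif1a rose over time in both genotypes. Ldha, Pfkfb2, Pfkfb3, Pfkm, Pdk2 and Pdp2 had it too and were called in neither genotype. ACGTG outside the E-box occurred in Hk2, Pgk1, Pgam1 and Hif1a, which rose in both genotypes. It also occurred in Aldoa, which was called higher in KO alone, and in Hk3, which was not tested. Slc16a3, Slc2a1, Pkm, Pdk3, Ldha, Pfkfb2, Pfkfb3 and Pfkm held it as well and were called in neither genotype. Whether the motifs go with the changes over time was not tested.

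Between genotypes, 1 of the 31 tested genes passed, Tpi1 at 24 h. At 24 h 0 members were higher and 1 was lower in KO (edgeR quasi-likelihood test, BH-adjusted p below 0.05), against 0.182% of all tested genes higher and 0.0911% lower, 0.273% in all. At 0 h 0 of 31 passed, against 0.346% of all tested genes, and DESeq2 called 0 as well. At an unadjusted p below 0.05 there were 2 of 31 members at 0 h, against 878 of 10981 tested genes. At 24 h there were 5 of 31 at that level, against 775 of 10981. Log2 fold changes of KO over WT were below 0 in 25 of 31 members at 24 h (80.6%, against 52.2% of all tested genes) and in 24 of 31 at 0 h (77.4%, against 49.0%). The median over the members was -0.07 at 24 h and -0.09 at 0 h, against -0.01 and 0.00 over all tested genes, so the lean was small in size. With total reads in place of TMM, 17 of 31 members lay below 0 at 24 h (54.8%, against 40.3% of all tested genes) and 22 of 31 at 0 h (71.0%, against 45.5%).

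Triosephosphate isomerase, encoded by Tpi1, interconverts both products of aldolase so that each can go on to pyruvate. Its gene had 27.1, 33.3 and 30.1 CPM in KO 24 h, against 41.4, 49.6 and 57.8 CPM in WT 24 h, while at 0 h the KO libraries had 32.1, 22.3 and 32.0 CPM, against 34.3, 28.9 and 27.6 CPM in WT 0 h. The WT 24 h libraries stood above the other 9, which overlapped each other. Tpi1 thus rose over time in WT (log2 0.72, SE 0.151, edgeR quasi-likelihood test, BH-adjusted p = 0.000117) and not in KO (log2 0.06, adjusted p = 0.783). In KO 24 h it was at 0.606 of the WT 24 h level (log2 -0.72, SE 0.155, adjusted p = 0.0173), and at 0 h the log2 fold change was -0.06 (adjusted p = 0.96). The test of the difference itself, the interaction of genotype and time, gave log2 -0.66 (SE 0.22, unadjusted p = 0.00453) and an adjusted p of 0.84, so it did not pass. The call at 24 h ended without KO 24 h replicate 1 (adjusted p = 0.179), KO 24 h replicate 3 (0.104), WT 24 h replicate 2 (0.0973) or WT 24 h replicate 3 (0.201).

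Tpi1 shares 34 exon bases with the opposite-strand gene Spsb2, and no strand setting is given for the counts. The reads behind the KO 24 h values were 148, 191 and 121, and those behind the WT 24 h values 206, 432 and 415.

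**Figure D5:**
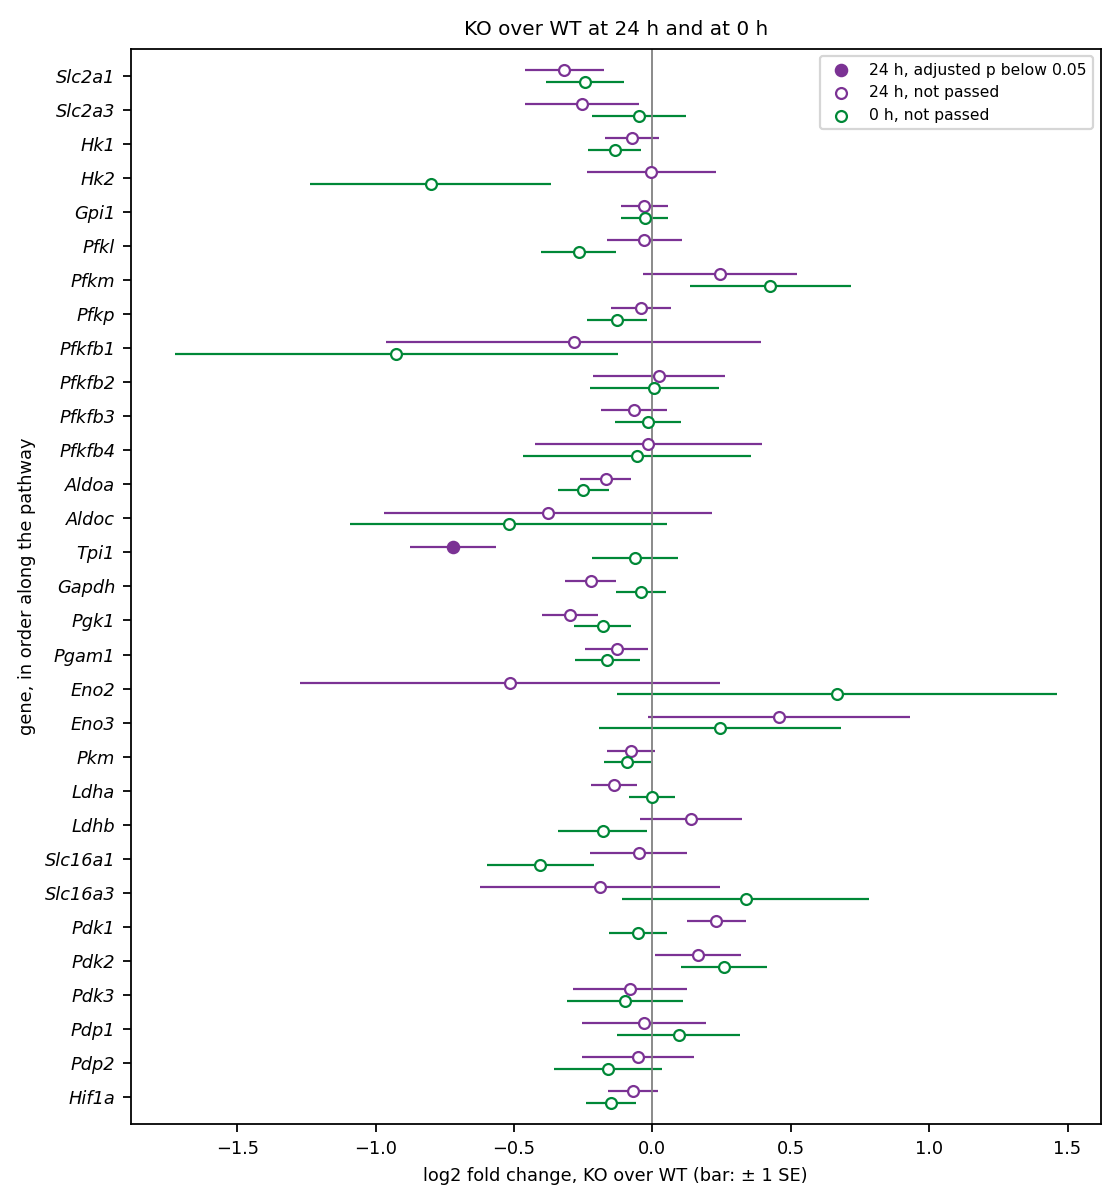
Log2 fold change of KO over WT for each of the 31 tested genes, with 24 h above 0 h for each gene and bars of 1 SE; the filled circle passed an adjusted p of 0.05. Tpi1 at 24 h is the single filled circle, at -0.72, and the widest bars belong to genes of a few CPM or less, such as Eno2, Pfkfb1 and Aldoc.

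No other gene of the set passed between genotypes. At 24 h, KO libraries lay below all WT libraries for Slc2a1 (log2 -0.32, SE 0.142, edgeR quasi-likelihood test, BH-adjusted p = 0.626) as well as Tpi1, and above them for Pdk1 (log2 0.23, SE 0.107, adjusted p = 0.679) and Ldhb (log2 0.14, SE 0.185, adjusted p = 0.957). These 2 lower and 2 higher genes of 31 compare with 7.19% and 5.74% of all tested genes without overlap. At 0 h, Hif1a alone lay lower in every KO library (log2 -0.15, adjusted p = 0.716), against 6.36% of all tested genes lower and 6.04% higher without overlap. Hk2 had a log2 fold change of -0.00 at 24 h and -0.80 at 0 h (SE 0.435, adjusted p = 0.674), where counts were low. In the interaction of genotype and time 0 members passed by edgeR and 0 by DESeq2, against 0.00911% of all tested genes by edgeR, and 1 of 31, Tpi1, had an unadjusted p below 0.05, against 575 of 10981 tested genes. The steps on either side of Tpi1 did not share its difference as calls, with log2 fold changes at 24 h of -0.17 for Aldoa (adjusted p = 0.764), -0.22 for Gapdh (0.585) and -0.30 for Pgk1 (0.377).

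Txnip, for an arrestin that restrains GLUT1 at the membrane, was higher in KO while Slc2a1 did not differ as a call. It had 521.0, 567.0 and 535.1 CPM in KO 24 h, against 270.6, 258.3 and 270.6 CPM in WT 24 h, and it fell over time by 0.82 on the log2 scale in KO (edgeR quasi-likelihood test, BH-adjusted p = 4.51e-10) and by 0.80 in WT (adjusted p = 1.04e-09). Its relative Arrdc4 had 23.2, 22.3 and 19.6 CPM in KO 24 h, against 2.61, 2.41 and 0.976 CPM in WT 24 h. Both were also called higher in KO at 0 h. There Txnip averaged 955.2 CPM in KO, against 464.3 CPM in WT, and Arrdc4 33.6 CPM, against 1.57 CPM. Over time Arrdc4 fell in KO (log2 -0.62, SE 0.232, adjusted p = 0.0294), and in WT it had log2 0.22 (adjusted p = 0.708). The difference between these changes did not pass (interaction log2 -0.84, adjusted p = 0.972).

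Genes around the pathway were counted from further lists, whose counts over time stand against 40.4% of all tested genes called in KO (19.4% higher and 21.0% lower) and 40.7% in WT (20.2% higher and 20.5% lower). Among other carriers and their chaperones, 8 of 15 were tested, and 3 rose and 1 fell in each genotype over time. Slc2a6, for a carrier of the glucose carrier family, averaged 12.8 ± 3.10 CPM in KO 24 h, against 0.528 ± 0.481 CPM in KO 0 h (SD, n = 3 each), a log2 fold change of 4.78 (SE 0.535, edgeR quasi-likelihood test, BH-adjusted p = 4.63e-10). In WT it averaged 8.84 ± 0.694 CPM at 24 h, against 0.473 ± 0.438 CPM at 0 h (SD, n = 3 each), a log2 fold change of 4.28. Emb, for a chaperone of monocarboxylate carriers, fell by 0.69 on the log2 scale in KO.

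Of other glycolysis and glucose genes, 9 of 18 were tested, 0 rose, and 3 fell in KO and 4 in WT over time. Galm, for the mutarotase of glucose, fell by 1.25 on the log2 scale in KO and by 1.30 in WT. Bpgm, for the enzyme that diverts a glycolytic intermediate to bisphosphoglycerate, fell by 0.76 in KO and by 0.51 in WT. Of 9 tested genes of pyruvate entry into mitochondria, 2 fell and 0 rose in KO, and 2 fell and 2 rose in WT. Pdha1, for the catalytic subunit of pyruvate dehydrogenase, fell in both, by 0.33 in KO (edgeR quasi-likelihood test, BH-adjusted p = 0.0117) and by 0.45 in WT (adjusted p = 0.000433) on the log2 scale, and Mpc2, for a subunit of the mitochondrial pyruvate carrier, fell in KO by 0.61. In WT, Pdpr, for a regulatory subunit of the pyruvate dehydrogenase phosphatase, rose (log2 0.62, adjusted p = 0.00588), as did Dld, for the dihydrolipoamide dehydrogenase of the complex (log2 0.51, adjusted p = 0.00217).

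Of 17 tested genes of the hypoxia-inducible factor pathway and its known targets, 7 rose and 1 fell in KO, and 6 rose and 2 fell in WT. Vegfa, for a vascular growth factor, averaged 28.7 ± 1.51 CPM in KO 24 h, against 0.949 ± 0.623 CPM in KO 0 h (SD, n = 3 each), and 30.7 ± 6.27 CPM in WT 24 h, against 2.22 ± 0.971 CPM in WT 0 h (SD, n = 3 each). The log2 fold change was 4.87 in KO and 3.82 in WT. Among 7 tested regulators of glycolysis, 3 rose and 2 fell in KO, and 2 rose and 1 fell in WT. Myc, for a transcription factor that drives growth and glycolytic genes, averaged 637.1 ± 39.2 CPM in KO 24 h, against 205.4 ± 43.6 CPM in KO 0 h (SD, n = 3 each), a log2 fold change of 1.63 (edgeR quasi-likelihood test, BH-adjusted p = 3.32e-14), and in WT it rose by 1.20. Of the genes on these 5 lists, Myc at 0 h alone passed between genotypes, lower in KO (log2 -0.50, SE 0.107, adjusted p = 0.0237), and it did not pass at 24 h.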

How the data were processed

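Per the labels' protocols, CD4+ T cells were enriched by removing other cells, and total RNA libraries were made with a NuGen Ovation kit and probe-based removal of ribosomal RNA. The deposited values are raw read counts per gene symbol for each library. Of tools and builds, the submitters' processing notes list DESeq, STAR 2.6.0c and hg19, a human build that the mouse symbols contradict, and which build lies behind the counts is therefore unclear. Counter, annotation and strandedness were not given in the sources used here. Entries that name no gene were left out, and they held 22.8% to 35.4% of reads without a feature, 0.412% to 0.576% ambiguous and 25.7% to 30.9% aligned to several places.

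Groups and replicate numbers came from the sample titles. Counts were scaled by TMM (edgeR 4.0.16, R 4.3.3), genes were kept by filterByExpr (minimum count 10, minimum total 15) and 10981 were tested with edgeR's quasi-likelihood test in 1 robust fit of the 4 groups, without covariates. P-values were Benjamini-Hochberg adjusted over all genes tested, with 0.05 as the threshold. The code was tested on simulated data with 200 changed genes. RPKM used union exon lengths of GENCODE vM21 (GRCm38), isozyme shares are percent of the summed RPKM of a family, and both are descriptions. Replicate counts varied beyond sampling noise (chi-square per gene between 3.23 and 15.5).

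The member genes, lists and tests were chosen with earlier results of these data known. Values in every library are given for genes that passed between genotypes, that passed in both genotypes over time with an absolute log2 fold change of at least 1, or that led their isozyme family per length. Ldhb, Hif1a, Pgk1 and Pgam1 were added after their values were seen. From each further list at most 3 passing genes were named, largest change first. A gene that this rule names is not reported here. Alternatives were other scalings, DESeq2 1.42.0, no filter, a replicate block, leaving out Rn45s and leaving out each library.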

Additional observations from a re-analysis of the deposited data

How the results depend on the processing

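No member changed direction in any comparison in which it passed. Of the 19 member calls, 15 held under all 18 alternatives, and the exceptions were Tpi1 between genotypes at 24 h, Pfkp and Aldoa over time in KO and Pdk1 over time in WT, as given above. Scaling by total reads gave 14 members higher over time in KO (7 by TMM) and 15 in WT (6 by TMM), as well as 48 genes in all between genotypes at 24 h (30 by TMM, 20 higher and 10 lower, against 40 and 8). Over all genes it called 3708 higher and 1403 lower over time in KO, against 2129 and 2306 by TMM, and 3580 and 1468 in WT, against 2217 and 2253. At 0 h it split genotype calls as 13 higher and 16 lower, against 13 and 25. With no filter on low counts 59 genes passed between genotypes at 0 h (38 with it) and 3 in the interaction. The interaction called 1 gene in all, Hist1h1e, named after its value was seen, and 0 by RLE scaling, total reads, without Rn45s or with the replicate block. Leaving out each library in turn gave 17 to 42 genes at 0 h, 14 to 36 at 24 h, 3697 to 4564 over time in KO, 3863 to 4628 in WT and 0 to 1 in the interaction. Among members it gave 0 to 1 lower at 24 h, 5 to 9 higher and 2 to 2 lower over time in KO, 6 to 8 higher and 3 to 4 lower in WT, and 0 to 0 elsewhere. The replicate block kept the member counts at 7 higher and 2 lower in KO, 6 and 3 in WT and 0 and 1 at 24 h (Tpi1 adjusted p = 0.0304). Same-numbered libraries deviated with correlations of -0.0884 to 0.0934, with 0 of 18 above 0.1, so the numbers were not taken to pair libraries. With the longest transcript as gene length, Hk2 and Ldhb held smaller shares of their families in each group, and Pfkl led Pfkp in WT 0 h. Precision is limited by depth for genes of a few CPM. Genes that share sequence with other genes may also have lost reads, which was not tested.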
